A study of Mus musculus with 36 samples.

Results

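The clustered protocadherin genes carried broad K27me3 peaks at most of their promoters in adult mouse pancreas, and narrow K4me3 peaks at a minority of them, nearly all in the gamma cluster. The genes were chosen by name: every protein-coding gene of the GENCODE annotation (vM21, build mm10) on chromosome 18 whose symbol begins with Pcdha, Pcdhb or Pcdhg, which gave 57 of 21938 protein-coding genes. They lie head to tail on the plus strand in 3 clusters. The alpha cluster holds 14 genes between 36930184 and 37187661 (257 kb), the beta cluster 22 genes between 37264938 and 37524479 (260 kb), and the gamma cluster 21 genes between 37661793 and 37841873 (180.1 kb).

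Clustered protocadherins are cadherin-like proteins of the cell surface, best known from neurons, where each cell uses its own small set of them as an identity that lets its branches recognize and avoid each other. In the alpha and gamma clusters every gene has its own promoter and its own large first exon, which is spliced to constant exons shared by the whole cluster, whereas the beta genes are complete in a single exon. CTCF and cohesin bring the chosen promoters to distant enhancers, DNA methylation and H3K9 methylation silence the others, and the C-type genes at the end of the alpha and gamma clusters are used more uniformly than the rest.

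The study asked how the methyltransferase EZH2 acts on the chromatin of the adult pancreas at an early stage. EZH2 is the catalytic subunit of Polycomb repressive complex 2 (PRC2), which places trimethylation on lysine 27 of histone H3 (K27me3), a mark of silenced genes, while trimethylation of lysine 4 (K4me3) marks promoters in use or poised for it. In ChIP-Seq an antibody pulls down chromatin with the mark and its DNA is sequenced, and a peak is a stretch of genome with more reads than its surroundings and the input. Whole pancreas was taken 22 days after tamoxifen gavage from 3 mice of each of 4 genotypes, and K27me3 and K4me3 were profiled in each mouse, which gave 24 peak lists.

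The WT mice were labelled Wildtype, and the study used C57BL/6 mice or mice with only the Mist1creERT allele as its controls. The EZ mice were Mist1creERT/+EZH2[delta]SET and lose the catalytic SET domain of EZH2. The KR mice carried Mist1creERT and a further conditional allele, and the KE mice carried that allele together with Ezh2[delta]SET. All mice received tamoxifen at 2 to 4 months of age, on a C57BL/6 background. The Mist1 promoter drives creERT in acinar cells, the enzyme-producing cells of the pancreas, so ducts, islets, vessels, nerves and immune cells in the same tissue keep their EZH2. In whole tissue, a mark present in more cells and a larger share of the cells that carry it cannot be told apart.

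The peak lists give positions only, with no height or read count, so the depth of each library is unknown. A gene counts here as carrying a mark when at least 1 bp of a peak lies within 3 kb of its start, and the covered length is the number of bases of that 6-kb window, or of a whole cluster, that lies under peaks. The shortest K27me3 peak was 5001 bp and the shortest K4me3 peak 501 bp, so those are the smallest domains the lists can show. Neighbors share peaks: the windows of adjacent starts overlapped in 2 of 13 pairs in the alpha cluster, 5 of 21 in the beta cluster and 14 of 20 in the gamma cluster.

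Acinar marker genes carried K4me3, a mark that 53.9% of all genes had in all 12 mice. All 8 acinar genes examined had K4me3, 7 of them in all 12 mice and Pnlip, the pancreatic lipase, in 6, while K27me3 was called in no mouse at 5 of them and in WT2 alone at the transcription factor genes Ptf1a, Rbpjl and Nr5a2. Some markers of other cells of the tissue also carried K4me3. It was called in all 12 mice at 3 of 4 duct genes, Krt19 and Sox9 among them, and in 11 mice at Cftr, at 1 of 6 islet genes (Pdx1) and in 11 mice at Nkx6-1 and Neurod1, at 1 of 3 endothelial genes (Kdr), at 2 of 5 fibroblast and stellate genes (Col1a1 and Vim) and at 0 of 4 immune genes, of which 3 had it in 1 to 11 mice. No mouse had K4me3 at 3 of the 6 islet genes, 2 of the 5 fibroblast and stellate genes, 1 of the 3 endothelial genes and 1 of the 4 immune genes. K27me3 was called in all 12 mice at the 2 islet genes Nkx6-1 and Neurod1 and at no duct, endothelial, immune or fibroblast gene in all 12. Of 8 neuronal and glial genes, K4me3 was called at 1 in all 12 mice, at 3 in 1 to 11 mice (Elavl4 and Syt1 in 11, Tubb3 in 6) and at 4 in none, Sox10, S100b and Snap25 among them. K27me3 was called at 2 of the 8 in all 12 mice (Snap25 and Elavl4), at 4 in 1 to 11 mice, with Syt1 in 11 and Sox10 in 2, and at 2 in none (S100b and Tubb3). The part of nerve cells in the marks at the clusters was not tested. WT2 stood apart: 22.7% of all genes had K27me3 within 3 kb of the start in this mouse, against 9.17% to 14.5% in the other mice, and 10.7% of genes had both marks against 1.46% to 4.52%. K27me3 peaks on chromosome X numbered 10 to 35 in EZ2 and the 3 KR mice and 5637 to 7367 in the other 8 mice, and autosomal K27me3 length was 178 to 226 Mb in those 4 mice and 136 to 187 Mb in the 8. All KR mice were on the same side of that split, so the split and the KR genotype cannot be told apart. The labels give no sex for the mice.

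**Figure D1:**
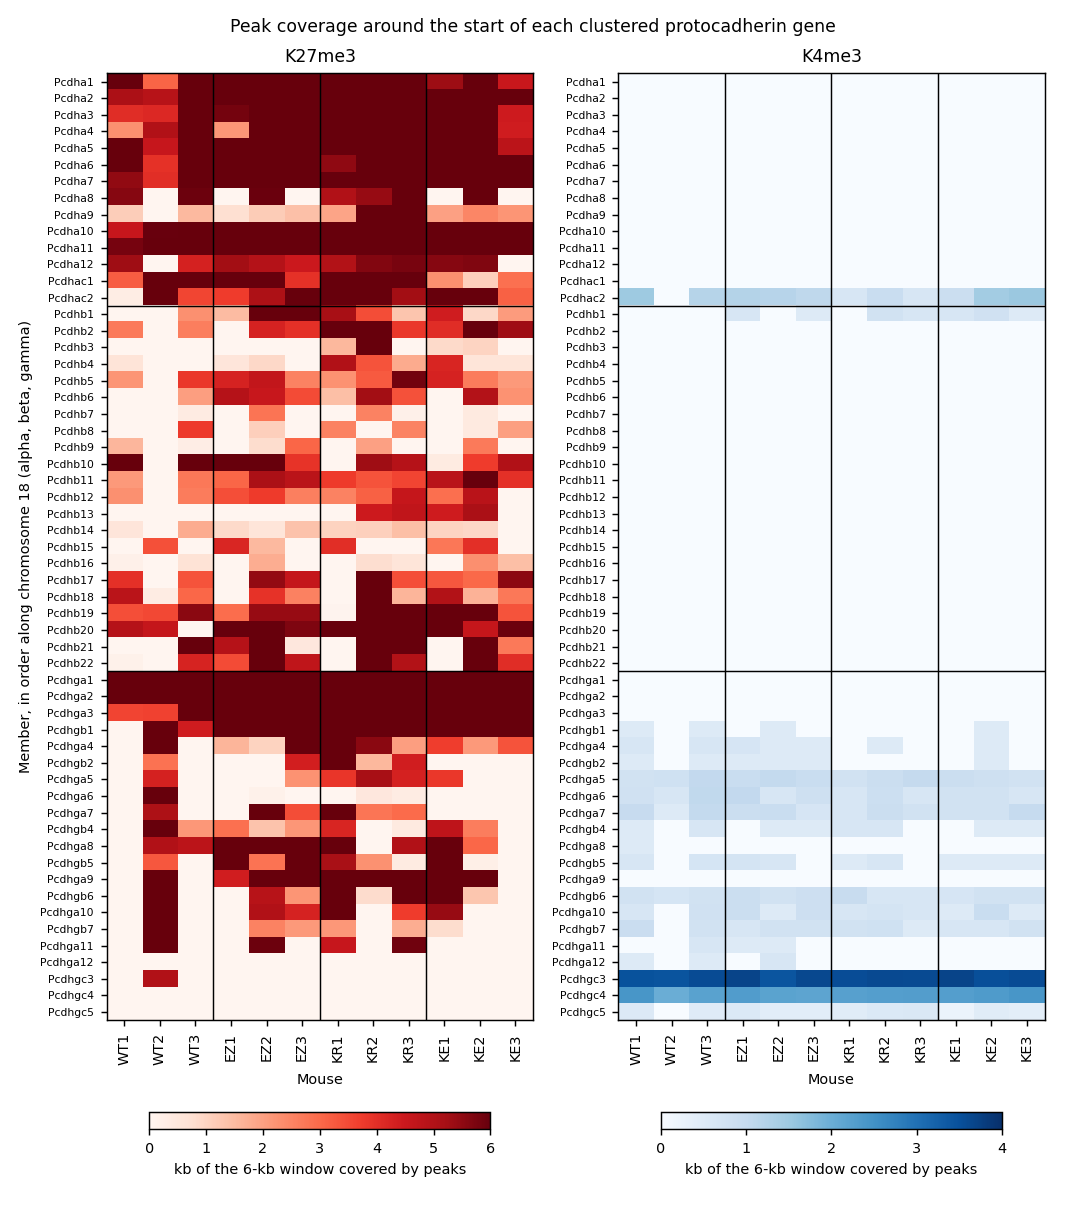
Each row is a clustered protocadherin gene in chromosomal order and each column a mouse, and color gives the kb of the 6-kb window around the start that lies under K27me3 peaks (left, 0 to 6 kb) or K4me3 peaks (right, 0 to 4 kb), with black lines between genotypes and clusters. Most alpha rows and the first 3 gamma rows are dark for K27me3 in most mice, with Pcdha8 and Pcdha9 lighter, and the last 4 gamma rows are pale except for Pcdhgc3 in WT2, while Pcdhgc3 and Pcdhgc4 carry the widest K4me3 peaks.

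K27me3 was called at 32 to 50 of the 57 genes in a mouse. The counts were 32, 33 and 37 in the WT mice, 35, 49 and 43 in the EZ mice, 43, 46 and 50 in the KR mice, and 41, 46 and 32 in the KE mice. Of all genes, 9.17%, 22.7% and 12.1% were called in the WT mice, 12.7%, 10.9% and 14.1% in the EZ mice, 13.8%, 11.3% and 12.3% in the KR mice, and 14.5%, 14.0% and 11.6% in the KE mice. The share of the clustered genes was 56.1% to 87.7%, a ratio to all genes of 2.55 to 7.86 with a median of 5.41. The lowest ratio was that of WT2. By length, K27me3 peaks covered 27.1% to 64.6% of the 3 clusters and 5.53% to 9.16% of the autosomes.

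K27me3 was also steady between mice at part of the genes. It was present in all 12 mice at 15 of the 57 (26.3%), against 2.42% of all genes, in at least 1 mouse at 54, against 33.4% of all genes, and in no mouse at 3 (5.26%), against 66.6%. Of those 15, 11 were alpha genes, 1 was a beta gene and 3 were gamma genes. The median number of mice with K27me3 was 12 for the alpha genes, 9 for the beta genes and 6 for the gamma genes, and 0 for all genes.

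In the alpha cluster K27me3 lay over most of the variable promoters in nearly every mouse. Pcdha1 to Pcdha7, Pcdha10 and Pcdha11 had the mark in 12 mice, and the widest peak over them reached 50.9 kb in KR2. Pcdha1 had 6001, 3086 and 6001 bp of its window covered in the WT mice, 6001 bp in each EZ and KR mouse, and 5325, 6001 and 4535 bp in the KE mice. Pcdha2 ranged from 4887 to 6001 bp over the 12 mice and Pcdha3 from 4045 to 6001 bp, with a median of 6001 bp for both. Their windows were thus wholly covered in most mice, and the genotypes overlapped.

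A stretch in the middle of the alpha cluster was less regular. Pcdha8 had K27me3 in 7 mice, with 5613, 0 and 5925 bp in the WT mice, 0, 5930 and 0 bp in the EZ mice, 5001, 5400 and 6001 bp in the KR mice, and 0, 5984 and 0 bp in the KE mice. Only the KR mice had it in all 3, and the values of the other genotypes ran from 0 to nearly the full window. Pcdha9 had it in 11 mice and Pcdha12 in 10. For Pcdha12 the 2 mice without it were WT2 and KE3. The name Pcdha10 is used here for a record that GENCODE gives a further time as Pcdha11 and that RefSeq names Pcdha10.

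The C-type genes Pcdhac1 and Pcdhac2, which sit downstream of the variable alpha genes and close to the constant exons, had K27me3 in 12 mice. Pcdhac2, the isoform through which serotonergic axons space themselves, had 292, 6001 and 3578 bp covered in the WT mice, 3737, 5069 and 6001 bp in the EZ mice, 6001, 6001 and 5253 bp in the KR mice and 6001, 6001 and 3123 bp in the KE mice. It was the sole alpha gene with K4me3. That peak, 630 to 1528 bp wide and centered at a median of 352 bp downstream of the start, was called in 11 mice and not in WT2. Both marks were therefore called at Pcdhac2 in 11 of 12 mice, more than at any other clustered gene, and the bases under both ranged from 0 in WT1 to 1430 in KE2. In a bulk library both marks may come from different cells or alleles.

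The beta cluster had K27me3 in separate blocks with gaps between them. All 22 genes had the mark in at least 4 mice, 10 of them in at least 10, and Pcdhb19 alone in 12. Pcdhb19 had 3431, 3527 and 5572 bp in the WT mice, 2938, 5391 and 5392 bp in the EZ mice, 58, 6001 and 6001 bp in the KR mice and 6001, 5998 and 3362 bp in the KE mice. Its call in KR1 rests on 58 bp of a peak edge. Pcdhb5, Pcdhb11 and Pcdhb20 had it in 11 mice. At the other end of the range, Pcdhb3 and Pcdhb13 had it in 4 mice and Pcdhb7, Pcdhb8, Pcdhb9 and Pcdhb15 in 6. At Pcdhb7 at most 2797 bp were covered, and 4 bp in WT1.

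Pcdhb3 and Pcdhb13 had no K27me3 in any WT or EZ mouse. Pcdhb3 had 1565, 6001 and 0 bp in the KR mice and 878, 1001 and 0 bp in the KE mice, and Pcdhb13 had 0, 4456 and 4689 bp in the KR mice and 4417, 5132 and 0 bp in the KE mice. The calls thus lay within the 6 KR and KE mice, in 4 of them at each gene, and each genotype included a mouse at 0. They were the 2 beta genes with no K27me3 in any WT mouse and also the 2 with none in any EZ mouse, whereas every beta gene had the mark in at least 1 KR and 1 KE mouse. Of all genes, 71.7%, 81.4%, 81.3% and 81.8% had none in any WT, EZ, KR and KE mouse. The share of all genes called only in KR and KE mice is not given, and these 2 were named for their few calls.

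Across the beta cluster K4me3 was found only at Pcdhb1, which lies apart from the other beta genes at the upstream end. The peak was 501 to 784 bp wide and called in 7 mice. Pcdhb1 had 0 bp in each WT mouse, 628, 0 and 501 bp in the EZ mice, 0, 762 and 636 bp in the KR mice and 630, 784 and 501 bp in the KE mice. Every KE mouse was thus above every WT mouse, and the other genotypes overlapped with both. The widths are close to the shortest K4me3 peak of the lists. The same 7 mice also had K27me3 at Pcdhb1. The bases under both marks in the beta cluster numbered 312 in EZ3, 462 in KR2 and 540 in KE1, and 0 in EZ1, KR3, KE2 and KE3.

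**Figure D2:**
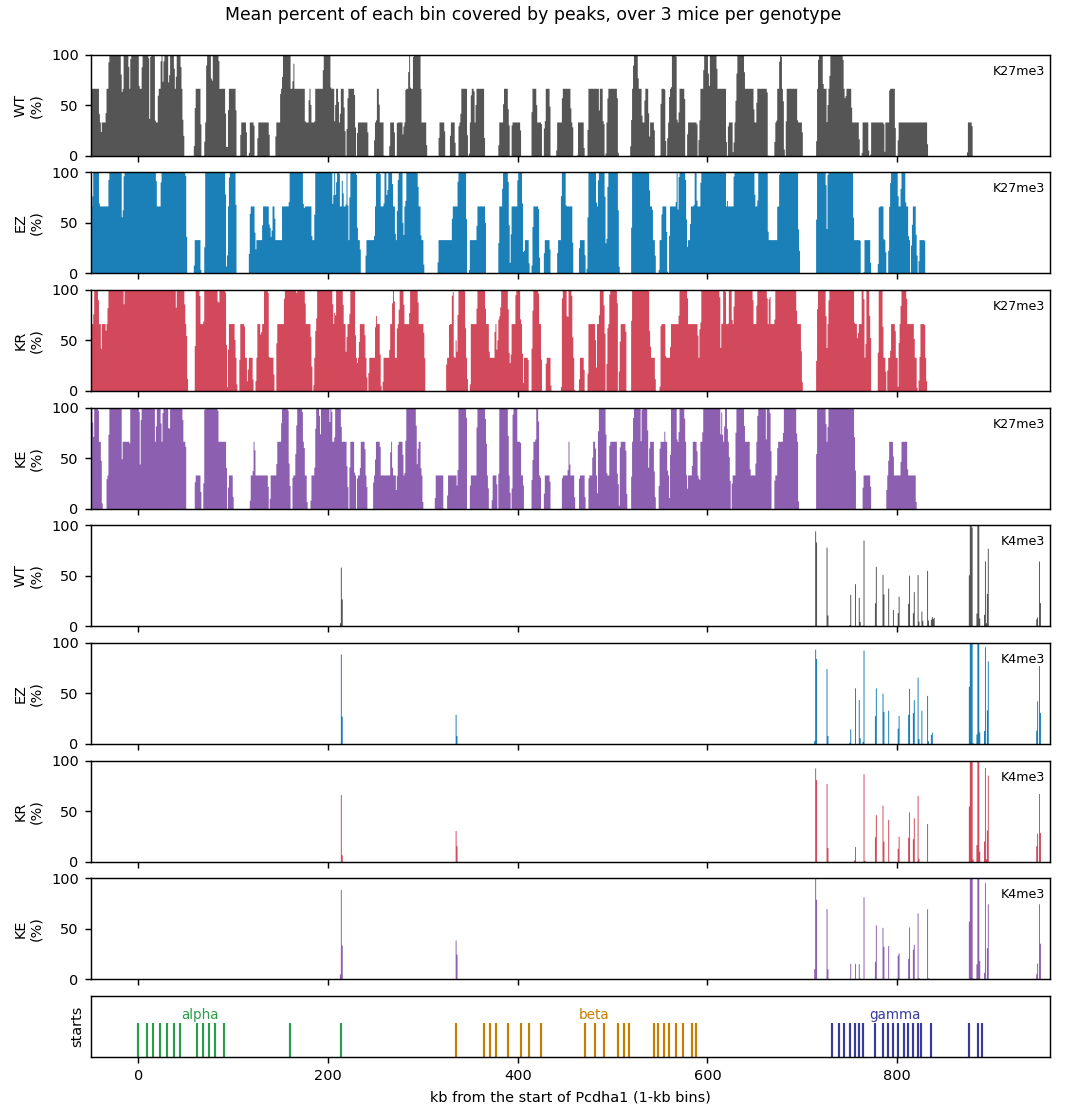
Percent of each 1-kb bin covered by K27me3 peaks (upper 4 panels) and K4me3 peaks (lower 4 panels), averaged over 3 mice per genotype, by distance in kb from the start of Pcdha1, with the gene starts as colored lines at the bottom. K27me3 runs with gaps from upstream of the alpha cluster into the gamma cluster and, apart from a peak in WT2, stops before the gamma C-type genes, where K4me3 peaks stand in all 4 genotypes.

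The gamma cluster was divided along its length. The upstream genes Pcdhga1, Pcdhga2 and Pcdhga3 had K27me3 in 12 mice and K4me3 in none. Pcdhga2 was wholly covered by K27me3 in every mouse and Pcdhga1 in all but WT1, at 5993 bp. Pcdhga3 ranged from 3600 to 6001 bp, with the lowest values in WT1 and WT2. The downstream genes Pcdhga12, Pcdhgc4 and Pcdhgc5 had K27me3 in no mouse, and Pcdhgc3 had it in WT2 alone, under a peak of the minimum width. In the other 11 mice no K27me3 peak of the cluster lay downstream of position 37761538, between the starts of Pcdhga11 and Pcdhga12.

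**Figure D3:**
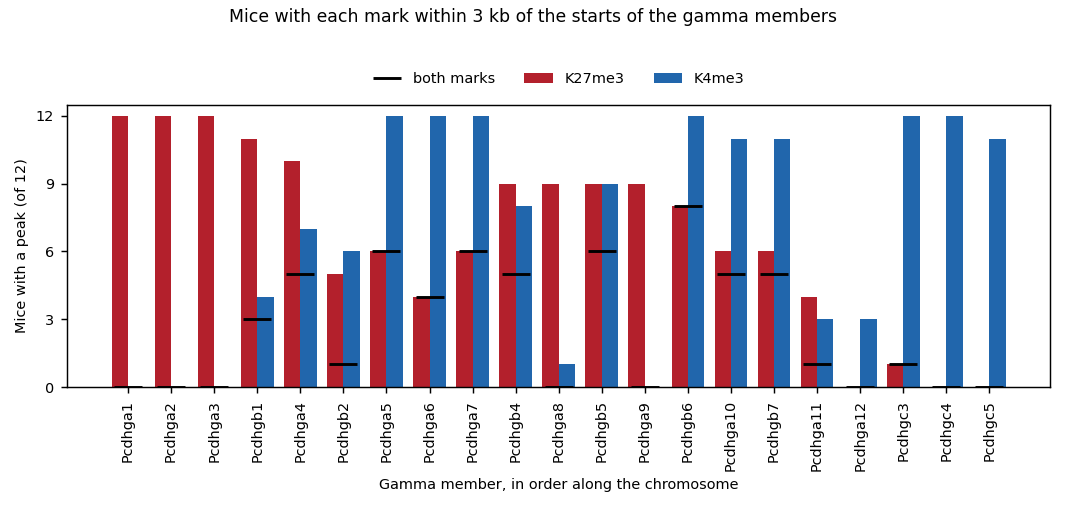
Number of mice, of 12, with K27me3 (red bars) or K4me3 (blue bars) within 3 kb of the start of each gamma gene in chromosomal order, with a black line at the number of mice that had both. The first 3 genes had K27me3 in 12 mice and no K4me3, Pcdhgc4 had K4me3 in 12 mice and no K27me3, and the genes between had both in 0 to 8 mice.

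K4me3 at the clustered genes was mostly a gamma mark. It was called at 17, 6 and 17 of the 57 genes in the WT mice, 15, 17 and 14 in the EZ mice, 12, 14 and 11 in the KR mice and 12, 16 and 13 in the KE mice, of which 6 to 16 were gamma genes. This was 10.5% to 29.8% of the clustered genes. Of all genes, 59.6%, 57.5% and 59.2% were called in the WT mice, 59.1%, 59.6% and 59.1% in the EZ mice, 60.4%, 58.8% and 58.5% in the KR mice, and 58.2%, 59.8% and 58.6% in the KE mice. K4me3 was called in at least 1 mouse at 19 of the 57 genes, against 63.8% of all genes. The other 38 had no K4me3 in any mouse (66.7%), against 36.2% of all genes, and 6 had it in 12 (10.5%), against 53.9%. Those 6 were Pcdhga5, Pcdhga6, Pcdhga7, Pcdhgb6, Pcdhgc3 and Pcdhgc4.

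Of 20 regions of the gamma cluster with K4me3 peaks, 15 covered a gene start. At 13 genes of the A and B subfamilies their centers lay 163 to 315 bp downstream of the start, and their widths were 501 to 1054 bp. A region at chr18:37761215-37762367 (mm10), with its center at -3803 bp from the start of Pcdhga12, had a peak in 9 mice and covered no start, and smaller regions downstream of that start had one in 2 mice and in 1 mouse. At Pcdhga5 the covered length was 754 to 1045 bp with a median of 887 bp, at Pcdhga6 627 to 1054 bp with a median of 759.5 bp, and at Pcdhga7 501 to 1031 bp with a median of 825 bp. In the comparisons made here the genotypes overlapped at each of these 3. Pcdhga9, flanked by genes with K4me3, had none in any mouse, and Pcdhga8 had it in WT1 alone.

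The gamma C-type genes differed from the others in the width of their K4me3 peaks. Pcdhgc3, which is expressed in many tissues outside the nervous system, had a peak of 3437 to 3677 bp in all 12 mice. Pcdhgc4, which cortical interneurons require to survive development, had a peak of 2015 to 2413 bp in all 12 mice. By genotype the covered length at Pcdhgc3 was 3498 ± 65.8 bp in the WT mice, 3577 ± 125 bp in the EZ mice, 3578 ± 21.2 bp in the KR mice and 3589 ± 79.1 bp in the KE mice (SD, n = 3 each). At Pcdhgc4 it was 2211 ± 199 bp, 2219 ± 68.6 bp, 2272 ± 22.1 bp and 2338 ± 68.7 bp in the same order. These differences were within the spread of the mice, as the genotypes overlapped at both genes. Pcdhgc5 was called in 11 mice through a peak that lies 3.09 kb downstream of its start and enters the window by at most 587 bp. A further peak 5.90 kb downstream of that start was present in 12 mice.

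Between these ends lay the genes with both marks. Apart from Pcdhac2 and Pcdhb1, 10 genes had K27me3 and K4me3 in at least 3 of 12 mice, all of them gamma genes: Pcdhgb6 in 8 mice, Pcdhga5, Pcdhga7 and Pcdhgb5 in 6, Pcdhga4, Pcdhgb4, Pcdhga10 and Pcdhgb7 in 5, Pcdhga6 in 4 and Pcdhgb1 in 3. Together these 12 genes are 21.1% of the clustered genes, where 5.21% of all genes met the same rule. Both marks in a window need not share bases. Over the gamma cluster the bases under both ran from 0 in WT1 and KE3 to 5954 in WT2. At Pcdhgb6 the K27me3 length was 0, 6001 and 0 bp in the WT mice, 0, 4875 and 2203 bp in the EZ mice, 6001, 842 and 6001 bp in the KR mice and 6001, 1272 and 0 bp in the KE mice, while its K4me3 length stayed between 626 and 946 bp in all 12. At Pcdhgb6, as at Pcdhga5, Pcdhga6 and Pcdhga7, K4me3 was thus called in every mouse and K27me3 in 4 to 8. At Pcdhgb1 and Pcdhga4 the order was the other way, with K27me3 in 11 and 10 mice and K4me3 in 4 and 7.

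WT2 shows how far a single mouse could depart from its genotype. In the gamma cluster K27me3 was called at 3, 18 and 6 genes in WT1, WT2 and WT3, and K4me3 at 16, 6 and 16. In the beta cluster the K27me3 counts ran the other way, at 15, 4 and 17. WT2 covered 92.3 kb of the gamma cluster and 21.3 kb of the beta cluster with K27me3, the highest and the lowest value of the 12 mice. KR1 had 80.7 kb of the gamma cluster and 108 kb of the beta cluster. The part of depth or of the cells sampled in this was not tested.

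CpG content differed between the clusters. In the 1000 bp around the start, the observed number of CpG dinucleotides over that expected from the base composition had a median of 0.682 for the alpha genes, 0.379 for the beta genes and 0.596 for the gamma genes, and 0.553 for all genes. Within the gamma cluster the median was 0.664 for the 6 genes with K4me3 in 12 mice, 0.644 for the 11 with K4me3 in 1 to 11 mice and 0.541 for the 4 without it. By the median of this ratio the beta genes were lowest and the alpha genes highest, while K4me3 was absent from nearly all of both. The median number of CpG was 34.5 for the alpha genes, 15 for the beta genes, 33 for the gamma genes and 41 for all genes. These are descriptions of neighboring genes of shared ancestry and carry no test.

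The genotypes were compared by the covered length of the 3 clusters, the measure that does not depend on which start is used. K27me3 covered 294, 189 and 353 kb in the WT mice, 341, 443 and 339.8 kb in the EZ mice, 339, 450.4 and 430.1 kb in the KR mice and 346, 395 and 225 kb in the KE mice. The means were 279 ± 83.1 kb, 374 ± 59.0 kb, 406 ± 59.4 kb and 322 ± 87.6 kb (SD, n = 3 each). The KR mice were the highest on average and the WT mice the lowest, but each of the 3 other genotypes overlapped with WT.

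**Figure D4:**
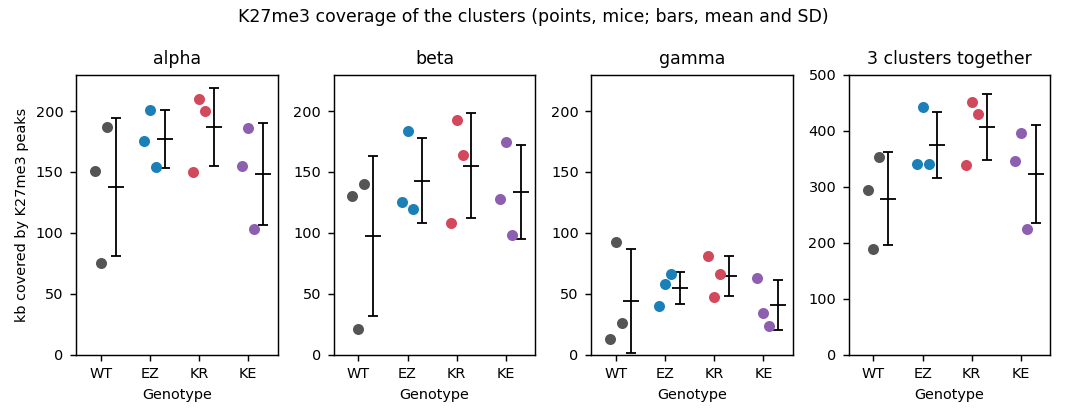
Length in kb covered by K27me3 peaks in the alpha, beta and gamma clusters and in the 3 together, for each mouse (points) with the mean and SD of 3 mice per genotype (bars at the right of each group). Every genotype overlaps with every other in the total, which runs from 189 kb in a WT mouse to 450.4 kb in a KR mouse, and the WT mouse lowest in the beta cluster is the highest in the gamma cluster.

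With 3 mice against 3, an exact permutation test cannot give p below 0.1, and no comparison of covered length reached even that for K27me3. EZ exceeded WT by 95.9 kb (exact permutation test, two-sided, p = 0.3, adjusted over 16 comparisons p = 0.8). KR exceeded WT by 128 kb (exact permutation test, p = 0.2, adjusted p = 0.8), and KE exceeded WT by 43.4 kb (exact permutation test, p = 0.6, adjusted p = 0.96). The difference of KE from KR was -84.4 kb (exact permutation test, p = 0.3, adjusted p = 0.8). The comparisons with WT share the same 3 WT mice. By medians EZ exceeded WT by 46.7 kb. Without WT2 the differences from WT were 50.9 kb for EZ, 82.9 kb for KR and -1.51 kb for KE, and without EZ2, the EZ mouse with few X peaks, EZ exceeded WT by 61.8 kb. Without KE2, KE exceeded WT by 6.92 kb, without KE3 by 92.0 kb and without WT3 by 80.5 kb, and with equal numbers of the widest peaks by 65.6 kb. The difference of KE from KR was -35.8 kb without KE3 and -36.4 kb with equal numbers of the widest peaks.

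Each cluster on its own gave the same picture of overlapping genotypes. In the alpha cluster K27me3 covered 151, 75.2 and 186 kb in the WT mice, 176, 201 and 154 kb in the EZ mice, 150.2, 210.3 and 200.1 kb in the KR mice and 155, 186 and 103 kb in the KE mice. In the beta cluster the values were 130.3, 21.3 and 140.2 kb, 126, 183 and 119.9 kb, 108, 193 and 164 kb, and 128, 175 and 97.9 kb in the same order. In the gamma cluster they were 13.1, 92.3 and 26.1 kb, 39.8, 58.3 and 65.9 kb, 80.7, 47.4 and 65.9 kb, and 63.2, 34.1 and 23.8 kb. No cluster separated any pair of the genotypes compared.

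The mice with the most K27me3 over the clusters also had the most elsewhere. EZ2, KR2 and KR3, at 430.1 to 450.4 kb, had 218 to 226 Mb of autosomal K27me3, the highest of the 12 mice. As a share of the autosomal K27me3 length of the same mouse, the clusters took 0.176%, 0.127% and 0.201% in the WT mice, 0.188%, 0.196% and 0.186% in the EZ mice, 0.191%, 0.207% and 0.192% in the KR mice and 0.231%, 0.212% and 0.165% in the KE mice. Scaled in this way, KR exceeded WT by 52.4 kb (exact permutation test, p = 0.3), EZ by 40.6 kb (exact permutation test, p = 0.5) and KE by 62.9 kb (exact permutation test, p = 0.3). The difference of KE from KR changed sign, to 10.5 kb (exact permutation test, p = 0.9).

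Counted by genes within 3 kb of the start, the KR and WT mice did not overlap. K27me3 was called at 43 to 50 clustered genes in the KR mice and at 32 to 37 in the WT mice, while 11.3% to 13.8% of all genes were called in the KR mice and 9.17% to 22.7% in the WT mice. The means were 46.3 ± 3.51 and 34.0 ± 2.65 genes (SD, n = 3 each), against 42.3 ± 7.02 in the EZ mice and 39.7 ± 7.09 in the KE mice. In a window from 100 kb upstream to 3 kb downstream, all 57 genes were called in each KR mouse and 54, 48 and 57 in the WT mice, so the difference of the means went from 12.3 to 4.0 genes and WT3 reached the KR mice. Of all genes, 33.2% to 40.2% were called there in the KR mice and 27.3% to 53.6% in the WT mice. When K27me3 peaks narrower than 10 kb were dropped, a choice made after seeing the data, the counts were 20, 32 and 32 in the KR mice and 15, 16 and 20 in the WT mice, so KR1 and WT3 were level. Of all genes, 6.46%, 4.8% and 5.37% were then called in the KR mice and 3.39%, 13.5% and 5.76% in the WT mice. The EZ mice, at 22, 30 and 28 genes, lay above the WT mice with this choice, beside 6.26%, 4.9% and 7.63% of all genes. KR and WT stayed apart within 1 kb of the start, where the difference was 10.7 genes, with a peak over the start itself, at 9.0 genes, and with equal numbers of the widest peaks, at 9.33 genes. Within 1 kb the KE mice also lay below the KR mice, with a difference of means of -6.67 genes. The share of all genes in each mouse is not given for these settings. Within 1 kb, 13, 26 and 21 clustered genes were called in all 3 mice of WT, KR and KE, beside 3.15%, 5.0% and 6.51% of all genes. For WT and KR, a peak over the start gave 12 and 21, beside 2.27% and 3.87%. Equal numbers of the widest peaks gave 14 and 30, beside 2.71% and 5.36%. All 14 alpha genes were called within 3 kb in each KR mouse, and also in WT1, WT3, EZ2 and KE2. The 4 mice with few X peaks, which include all 3 KR mice, had 43 to 50 called genes and the other 8 had 32 to 46, while 10.9% to 13.8% of all genes were called in the 4 mice and 9.17% to 22.7% in the 8, with medians of 11.8% and 13.3%.

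**Figure D5:**
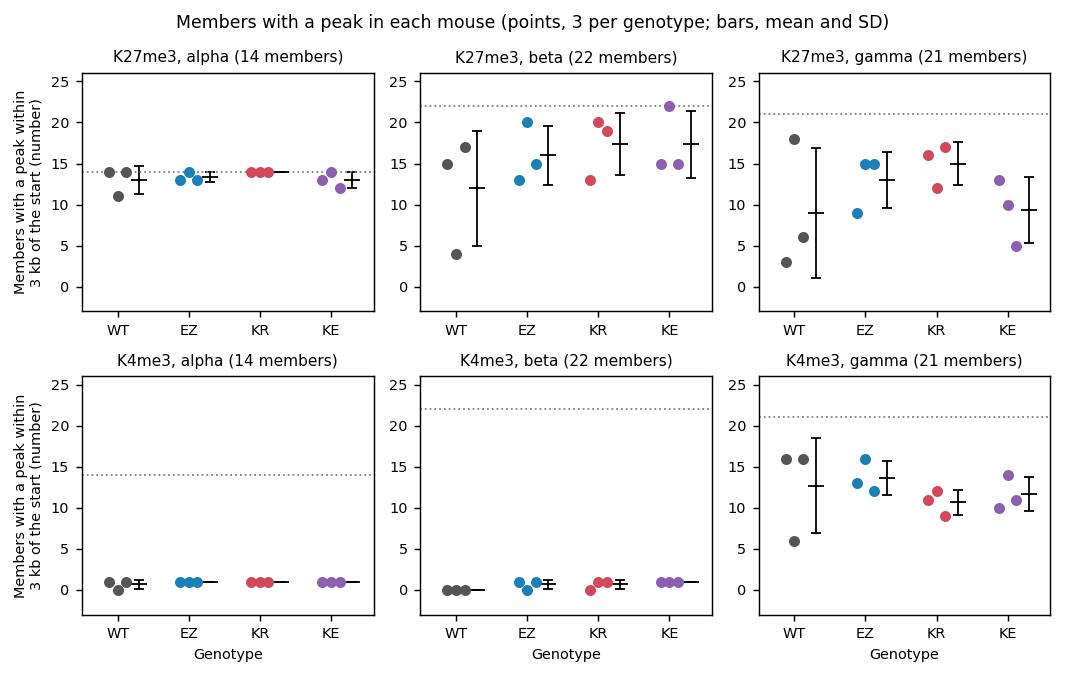
Number of alpha, beta and gamma genes with a K27me3 peak (upper row) or K4me3 peak (lower row) within 3 kb of the start in each mouse (points), with mean and SD of 3 mice per genotype (bars) and the size of the cluster as a dotted line. In each KR mouse, and also in WT1, WT3, EZ2 and KE2, all 14 alpha genes had K27me3. In every mouse 6 to 16 gamma genes had K4me3, against at most 1 in each of the alpha and beta clusters.

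The number of clustered genes with K27me3 in all 3 mice of a genotype was 16 in WT, 33 in EZ, 35 in KR and 27 in KE. The same rule held for 4.8%, 6.28%, 7.0% and 8.63% of all genes. By cluster, WT had 11 alpha, 2 beta and 3 gamma genes, EZ 13, 11 and 9, KR 14, 10 and 11, and KE 12, 10 and 5. WT2, with 4 beta genes, and WT1, with 3 gamma genes, set the low WT counts. Without WT2, 30 genes had K27me3 in both remaining WT mice, beside 7.07% of all genes. For K4me3 the counts were 6 in WT, 12 in EZ, 10 in KR and 12 in KE, beside 54.9%, 57.8%, 56.9% and 56.8% of all genes, and without WT2 the WT count was 16, beside 58.4%. Both marks in all 3 mice were found at 0, 2, 4 and 2 clustered genes in the same order, beside 0.775%, 1.1%, 1.35% and 1.91% of all genes.

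At single genes, K27me3 length in the window separated EZ from WT upward at 4 of 57 genes, beside 0.597% of all genes, and downward at 0, beside 0.0957%. Pcdhb6 had 4908, 4548 and 3489 bp in the EZ mice and 0, 0 and 2025 bp in the WT mice. The others were Pcdhb11 (4334 ± 1120 against 1616 ± 1431 bp), Pcdhb20 (5903 ± 169 against 3179 ± 2757 bp) and Pcdhga8 (6001 ± 0 against 3265 ± 2830 bp; SD, n = 3 each). At each of the 4 genes at least 1 WT mouse was at 0. Within 1 kb of the start, EZ lay above WT at 2 genes, beside 0.292% of all genes. Over the 57 genes the mean length was higher in EZ at 42 (73.7%), lower at 9 (15.8%) and equal at 6. Of all genes, 11% were higher and 19.7% lower, and 15199 of 21938 were equal. Among genes with a peak in either genotype, the median difference was 726 bp over 52 clustered genes and -461 bp over all genes. The WT means include WT2, with K27me3 at 22.7% of all genes, and the all-gene values include chromosome X, where EZ2 had few peaks. These means and medians are not given without them. Without WT2, EZ lay above WT at 9 clustered genes, without WT3 at 15 and without EZ1 at 8, beside 1.71%, 1.17% and 1.02% of all genes.

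KR and WT were separated upward at 5 of 57 genes, beside 0.611% of all genes, and downward at 0, beside 1.49%. All genes include those on chromosome X, where every KR mouse had few K27me3 peaks and every WT mouse many. Shares over autosomal genes alone are not given. Pcdha9 had 1911, 6001 and 6001 bp in the KR mice and 1136, 0 and 1545 bp in the WT mice. Pcdhb2 had 6001, 6001 and 3834 bp against 2678, 0 and 2603 bp, and Pcdhb4 had 5001, 3374 and 1790 bp against 595, 0 and 0 bp. At Pcdhb4, 2 of the 3 WT mice were thus at 0. Within 1 kb of the start, KR lay above WT at 1 gene, beside 0.287% of all genes. Pcdhb11 had 3574 ± 199 bp against 1616 ± 1431 bp and Pcdhb20 6001 ± 0 bp against 3179 ± 2757 bp (SD, n = 3 each). The mean was higher in KR at 46 of the 57 genes (80.7%), lower at 7 (12.3%) and equal at 4. Of all genes, 12.2% were higher and 18.6% lower, and 15200 of 21938 were equal. Among genes with a peak in either genotype, the median difference was 1378 bp over 54 clustered genes and -309 bp over all genes. As for EZ, the WT means include WT2, and these means and medians are not given without that mouse. Without WT2, KR lay above WT at 14 clustered genes, without WT3 at 16 and without KR1 at 12, beside 2.46%, 1.13% and 1.58% of all genes.

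KE and WT were separated upward at 3 genes, beside 1.05% of all genes, and downward at 1, beside 0.0866%. Pcdha9 had 1981, 2465 and 2182 bp in the KE mice, Pcdhb2 4052, 6001 and 5317 bp and Pcdhb11 4834, 6001 and 3983 bp, each above every WT mouse. The gene that was lower was Pcdhac1, with 2292, 1095 and 2860 bp in the KE mice and 3199, 6001 and 6001 bp in the WT mice. Over the 57 genes the mean was higher in KE at 38 (66.7%), lower at 15 (26.3%) and equal at 4. Of all genes, 11.7% were higher and 18.1% lower, and 15385 of 21938 were equal. Among genes with a peak in either genotype, the median difference was 648 bp over 54 clustered genes and -322 bp over all genes. By cluster these medians were 615 bp for the alpha genes, 992 bp for the beta genes and -176 bp for the gamma genes. Here too the WT means include WT2, and no mean or median is given without it. Without WT2, KE lay above WT at 5 clustered genes, without WT3 at 9, without KE1 at 5 and without KE3 at 8, beside 2.9%, 1.88%, 1.65% and 2.01% of all genes.

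KE and KR were separated downward, with less K27me3 in KE, at 5 of 57 genes, beside 0.688% of all genes, and upward at 1, beside 3.02%. The all-gene shares include chromosome X, where the KE mice had many K27me3 peaks and the KR mice few. The clustered genes are all on chromosome 18, and autosomal shares are not given. Pcdhac1 was wholly covered in all 3 KR mice, at 6001 bp, and 1095 to 2860 bp in the KE mice. Pcdhgb2 had 6001, 1561 and 4378 bp in the KR mice and Pcdhga7 6001, 2789 and 2972 bp, and both were at 0 in every KE mouse. Pcdhga5 had 3854, 5174 and 4298 bp in the KR mice and 3831, 0 and 0 bp in the KE mice, a gap of 23 bp between the nearest mice. Pcdhb14 had 1030, 1077 and 1411 bp in KR and 992, 918 and 0 bp in KE. Within 1 kb of the start, KE lay below KR at 2 genes, beside 0.365% of all genes. Pcdhb11 was the gene with more in KE, where it had 3983 to 6001 bp against 3364 to 3761 bp in KR. The mean was lower in KE at 35 of the 57 genes (61.4%), higher at 10 (17.5%) and equal at 12. Of all genes, 13.1% were lower and 9.79% higher, and 16917 of 21938 were equal. Among genes with a peak in either genotype, the median difference was -534 bp over 53 clustered genes and -132 bp over all genes. KE lay below KR at 8 clustered genes without KE1 and at 8 without KR2, beside 1.48% and 1.98% of all genes.

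At Pcdhgb2, Pcdhga5 and Pcdhga7, K27me3 in the WT mice was present in WT2 alone, at 2857, 4295 and 5079 bp. The WT mice therefore overlapped with both genotypes at these genes. K4me3 at Pcdhga5 and Pcdhga7 was called in every KR and KE mouse. No gamma gene downstream of Pcdhgb7 had K27me3 in a KE mouse, and 8 of the 21 gamma genes had it in no KE mouse, against 3 in WT, 4 in EZ and 4 in KR. Of all genes, 81.8% had it in no KE mouse, 71.7% in no WT mouse, 81.4% in no EZ mouse and 81.3% in no KR mouse. The WT count rests on WT2: without it, 15 of the 21 gamma genes had K27me3 in neither remaining WT mouse, beside 85.8% of all genes. With 1 KE mouse left out, the KE count was 11 without KE1 and 8 without KE2 or KE3, beside 84.2%, 83.6% and 82.6% of all genes.

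The SET deletion was compared in both backgrounds. The difference of means was 95.9 kb for EZ minus WT and -84.4 kb for KE minus KR, a difference between these effects of -180 kb (exact permutation test over 400 relabelings, two-sided, p = 0.06, adjusted over 10 measures p = 0.3). The genotypes overlapped in each contrast, and the difference did not pass the threshold. Scaled to the autosomal covered length of each mouse, it was -30.04 kb (exact permutation test, p = 0.595). With 1 mouse left out, it ran from -217 kb to -132 kb. Unadjusted, the exact permutation test gave p = 0.025 without WT3 (-217 kb), p = 0.03 without KR1 (-214 kb) and p = 0.045 without KE2 (-217 kb). It gave p = 0.115 without KE3 (-132 kb), p = 0.105 without WT2 (-135 kb) and p = 0.12 without EZ2 (-146 kb) in the same exact permutation test. In genes with K27me3 the means differed by 8.33 for EZ minus WT and -6.67 for KE minus KR, a difference between effects of -15.0 genes, which was -5.0 in the window from 100 kb upstream and -9.67 with equal numbers of the widest peaks. The same difference was -78.1 kb in the alpha cluster, -67.1 kb in the beta cluster and -35.1 kb in the gamma cluster. Whether the X-peak split, which all KR mice and EZ2 lie on one side of, has a part in it was not tested.

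K4me3 over the clusters differed little between genotypes. It covered 19.4, 8.96 and 19.7 kb in the WT mice, 17.5, 18.3 and 16.5 kb in the EZ mice, 14.7, 16.8 and 13.5 kb in the KR mice and 14.7, 18.2 and 15.998 kb in the KE mice. WT2 was the lowest of the 12, and the remaining 11 mice lay between 13.5 and 19.7 kb. EZ exceeded WT by 1.41 kb (exact permutation test, p = 1), KR differed from WT by -1.01 kb (p = 0.8, exact permutation test) and KE from WT by 0.236 kb (exact permutation test, p = 1). KE exceeded KR by 1.24 kb (exact permutation test, p = 0.5, adjusted p = 0.96). Without WT2, all 3 differences from WT were negative, at -2.12, -4.54 and -3.30 kb for EZ, KR and KE.

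By gene, K4me3 length separated EZ from WT at Pcdhgb6 alone, with 900, 776 and 859 bp in the EZ mice and 775, 672 and 753 bp in the WT mice, beside 5.2% of all genes. It separated KE from WT at Pcdhb1 alone, beside 2.84%. No clustered gene was separated downward in these comparisons, beside 1.34% and 1.63% of all genes, or in either direction between KR and WT, beside 2.45% and 2.03%, or between KE and KR, beside 3.67% and 1.44%. Without WT2, EZ lay below WT at 2 genes, KR at 6 and KE at 6, beside 6.23%, 11.2% and 7.04% of all genes, and 2, 5 and 6 of these were gamma genes. The 38 clustered genes without K4me3 in any mouse could not be separated by it.

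Of 18 other protein-coding genes that start within 200 kb of the clusters or between them, 12 had K4me3 in all 12 mice (66.7%) and 12 had no K27me3 in any mouse (66.7%), beside 53.9% and 66.6% of all genes. Upstream, Ndufa2, Ik, Wdr55, Hars, Hars2 and Zmat2 had K4me3 in 12 mice and K27me3 in none, and downstream the same held for the actin nucleator gene Diaph1 and for Hdac3, Rell2 and Fchsd1. Taf7, a subunit of TFIID that lies between the beta and gamma clusters, had K4me3 in 12 mice under a peak of 1589 to 2038 bp and also K27me3 within 3 kb in 12, through the gamma domain that begins at 37644409. Slc25a2 next to it had neither mark. The other genes with K27me3 in 12 mice were Gm42416, Gm37013 and Gm37388, gene records that start among the alpha genes and end in the gamma cluster.

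The non-clustered protocadherins, single genes with their own promoters elsewhere in the genome, had K4me3 more often than the clustered genes. Of 12, 7 had K4me3 in all 12 mice and 2 in none, beside 53.9% and 36.2% of all genes. K27me3 was in all 12 mice at 2, Pcdh8 and Pcdh17, and in none at Pcdh18, beside 2.42% and 66.6% of all genes. Pcdh17 had both marks in 12 mice. Pcdh7 had K4me3 in 12 mice and K27me3 in 11, and Pcdh10 K4me3 in 12 and K27me3 in 10. Pcdh20 had K27me3 in the 3 KR mice alone, and Pcdh11x and Pcdh19 are on chromosome X, where the split between mice applies.

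Most genes of the machinery that acts on the clusters carried K4me3. Of 12, 10 had it in all 12 mice, beside 53.9% of all genes. They were Ctcf, the cohesin genes Rad21, Smc1a, Smc3 and Stag2, the cohesin loader Nipbl and unloader Wapl, the silencing factor Smchd1, the H3K9 methyltransferase Setdb1 and the DNA methyltransferase Dnmt3b. Stag1 and Dnmt1 had no peak of either mark within 3 kb of the 5' end of their gene records. K27me3 was absent in every mouse at the 10 autosomal genes, beside 66.6% of all genes. It was called at the X-linked genes Smc1a and Stag2 in 5 mice each.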

How the data were processed

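K27me3 and K4me3 ChIP-Seq of whole pancreas was analyzed in 12 mice, 3 per genotype, grouped by the titles of the samples. Per the labels and the study's methods, the authors used FastQC for read quality and Bowtie2 for alignment to mm10. Peaks came from HOMER (findPeaks, histone setting), run for each mouse separately with its own input. Tool versions are not given in the sources used here. The deposited lists hold peak positions and a score column that is 1 for every peak, so the score carries no information. Depth and peak height are unknown, and the precision rests on 3 mice per genotype. The 12 input samples were not used. The further allele of the KR and KE mice and some marker genes are not reported here.

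Peaks were intersected with 6001-bp windows around the 5' end of each protein-coding gene record and with the clusters, in Python 3.11.15 with numpy 2.4.6, pandas 2.3.3 and scipy 1.17.1, and drawn with matplotlib 3.10.9. The code was tested on simulated peaks. Covered length was compared by two-sided exact permutation tests over mice, adjusted by Benjamini-Hochberg over 16 tests, and the SET effects by 400 relabelings. The labels do not say that mice were separate litters or batches, so p-values measure the spread between these mice. Permutation p-values of gene counts were computed and are not reported here. Genes that share windows are not independent.

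The genes and lists were chosen with earlier results of these data known. Named genes are the C-type genes, in each cluster and for each mark up to 3 genes called in the most and the fewest mice, genes with both marks in at least 3 of 12 mice, up to 5 genes per comparison with the greatest difference among those whose genotypes did not overlap, and the related and neighboring genes by list. Pcdha12, Pcdhb4, Pcdhb7, Pcdhb8, Pcdhb9, Pcdhb15, Pcdhb20 and some other genes outside that rule were named after their values were seen. Replicate numbers come from the titles. For each pair of genotypes the deviations of same-numbered mice from their genotype means were correlated over genes. All 3 pairs exceeded 0.1 only for K4me3 in KE against KR, at 0.445, 0.261 and 0.259, and blocking by number there changed no call.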

Additional observations from a re-analysis of the deposited data

How the results depend on the processing

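Of 240 planned recalculations, 182 kept their direction and their side of the threshold or, for counts of genes, stayed within 1.5 times, 38 counts moved further, 19 values changed sign and 1 passed the threshold, an unadjusted p below 0.05. Of 40 added after seeing the data, the numbers were 26, 12, 1 and 1. Keeping the direction does not mean keeping the size: of 121 planned differences that kept it, 30 changed by over 1.5 times. With the window from 100 kb upstream, the differences in genes with K27me3 were 4.0 for EZ minus WT, 4.0 for KR minus WT, 3.0 for KE minus WT, -1.0 for KE minus KR and -5.0 between the SET effects. With equal numbers of the widest peaks, KE minus KR was -1.33 genes. The added ones were K27me3 peaks of at least 10 kb, since the planned 5 kb removes no K27me3 peak, and a peak over the start itself. The cause was not tested in any of these. With starts within 1 kb, the difference between the SET effects in genes with K27me3 was -14.3 and passed that unadjusted threshold, which -15.0 within 3 kb did not, genes with both marks in all 3 mice numbered 1 in EZ and 1 in KE (0.406% and 1.09% of all genes), and non-overlapping K27me3 genes numbered 2 for EZ above WT, 1 for KR above WT and 2 for KE below KR (0.292%, 0.287% and 0.365% of all genes). With peaks of at least 10 kb, the difference between SET effects was -16.3 and passed it too, K27me3 genes in all 3 mice numbered 4, 16, 12 and 10 in WT, EZ, KR and KE (1.56%, 2.54%, 2.71% and 4.31% of all genes), and genes with both marks 1, 0 and 0 in EZ, KR and KE (0.456%, 0.52% and 0.975%). Scaled to the autosomal length, KE minus KR was 10.5 kb for K27me3, and for K4me3 EZ minus WT was -0.00523 kb, KE minus WT -0.333 kb and the difference between SET effects 0.902 kb. With equal numbers of the widest peaks, K4me3 genes were -1.0 for EZ minus WT, -1.0 for KE minus WT and 2.33 for the difference between SET effects, and K4me3 length -0.830, -0.96 and 2.38 kb. K4me3 genes in all 3 mice were then 3, 4, 3 and 4 in WT, EZ, KR and KE (51.4% to 51.8% of all genes), and genes with both marks 1, 0 and 1 in EZ, KR and KE (0.529%, 0.743% and 0.606%). With medians, the same K4me3 gene differences were -2, -4 and 3 and the lengths -1.86, -3.39 and 3.15 kb. From 100 kb upstream to 3 kb downstream, K4me3 genes were 5.67 for KR minus WT, and genes in all 3 mice of WT, EZ, KR and KE were 45, 57, 57 and 54 for K27me3, 21, 22, 22 and 30 for K4me3 and 18, 22, 22 and 27 for both, beside 19.1% to 27%, 73.7% to 77% and 10% to 15.4% of all genes. With a peak over the start itself, K4me3 genes were 0.333 for KR minus WT, K27me3 genes in all 3 mice 21 in EZ and 21 in KR (3.39% and 3.87% of all genes), and genes with both marks 0, 2 and 0 in EZ, KR and KE (0.141%, 0.205% and 0.515%). With stricter widths, KE minus WT was -1.0 genes and -0.84 kb for K4me3, K4me3 genes in all 3 mice were 2, 4, 2 and 2 (49.6% to 52.2% of all genes), and genes with both marks 1, 0 and 0 in EZ, KR and KE (0.597%, 0.811% and 1.33%). In at least 2 of 3 mice, K27me3 genes were 34 in WT and 43 in KE (10.9% and 13.1% of all genes), K4me3 genes 16 in WT (59.1%), and genes with both marks 1, 9, 9 and 4 in WT, EZ, KR and KE (2.41% to 3.33%).

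Leaving out 1 mouse gave 276 values, of which 212 kept their direction and side of the threshold or stayed within 1.5 times, 39 counts moved further, 19 changed sign and 6 passed the threshold, all 6 of them differences between SET effects in K27me3. Of 125 differences that kept their direction, 51 changed by over 1.5 times. K27me3 genes ranged over 5.0 to 12 for EZ minus WT, 10.5 to 14 for KR minus WT, 2.5 to 9.5 for KE minus WT, -9.83 to -2.83 for KE minus KR and -18.7 to -11.2 for the difference between SET effects. K27me3 length ranged over 50.9 to 133 kb, 82.9 to 165 kb, -1.51 to 92.0 kb, -121 to -35.8 kb and -217 to -132 kb in the same order. K4me3 genes ranged over -1.67 to 3.83, -4.67 to 0.833, -3.33 to 2.17, 0.167 to 2.17 and -2.5 to 3.0. K4me3 length ranged over -2.12 to 3.27, -4.54 to 0.849, -3.30 to 2.09, 0.302 to 2.14 and -2.03 to 3.36 kb. Genes in both or all remaining mice of WT, EZ, KR and KE ranged over 17 to 30, 33 to 41, 36 to 44 and 27 to 38 for K27me3, 6 to 16, 13 to 14, 10 to 12 and 12 to 13 for K4me3, and 0 to 1, 3 to 7, 5 to 6 and 2 to 4 for both marks. Non-overlapping K27me3 genes ranged over 5 to 15 and 0 to 0 for EZ above and below WT, 6 to 16 and 0 to 1 for KR against WT, 4 to 9 and 1 to 2 for KE against WT, and 1 to 2 and 5 to 8 for KE against KR. For K4me3 they ranged over 1 to 4 and 0 to 2, 0 to 3 and 0 to 6, 1 to 2 and 0 to 6, and 0 to 2 and 0 to 2. Of all genes, with 1 mouse left out, K27me3 was in all remaining mice at 5.31% to 8.13%, 7.36% to 10.4%, 8.26% to 8.91% and 9.61% to 11% in WT, EZ, KR and KE, and K4me3 at 55.2% to 58.4%, 58.2% to 58.4%, 57.3% to 57.7% and 56.9% to 58.1%. Non-overlapping K27me3 genes were 0.907% to 1.79% and 0.155% to 1.04% of all genes for EZ above and below WT, 0.912% to 2.46% and 1.52% to 2.56% for KR against WT, 1.31% to 2.9% and 0.137% to 0.903% for KE against WT, and 3.23% to 3.98% and 0.852% to 1.98% for KE against KR. For K4me3 they were 7.14% to 14.3% and 2.17% to 6.23%, 3.48% to 7.25% and 2.77% to 11.2%, 3.52% to 9.93% and 2.63% to 7.04%, and 4.48% to 12.6% and 2.2% to 5.29%.

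With the replicate number as a block, the differences were the same and the exact sign permutation gave p = 0.25 for KR minus WT in K27me3 length (128 kb), the smallest it can give, and no call changed. The numbers did not pair the mice for K27me3, where same-number correlations ran from -0.344 to 0.239. With 3 mice per genotype and no depth, small differences were not detectable.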
